A study of Mus musculus with 6 samples.

Results

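The 9 genes described here encode the entry and control enzymes of glycolysis: the hexokinases Hk1, Hk2 and Hk3, the phosphofructokinase-1 subunits Pfkl, Pfkm and Pfkp, and the phosphofructokinase-2 enzymes Pfkfb2, Pfkfb3 and Pfkfb4. They were taken by symbol from array rows annotated with exactly 1 gene, and where a gene had several such rows the brightest on average was kept. All 9 were measured, out of 19938 genes. The set was chosen by the opposite changes of Hk3 and Pfkfb3 between the genotypes studied. The difference between genotypes was thus used to select it. Its values in these genes are given as a description, with no test of the set, and calls of Hk3 or Pfkfb3 are not read as support.

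RNA came from LSKCD150- cells of mouse bone marrow. LSK cells lack lineage markers and carry Sca-1 and Kit, and the fraction without CD150 holds multipotent progenitors with few long-term stem cells. The control genotype, Cebpafl/fl, has loxP sites around both alleles of Cebpa, the gene of the myeloid transcription factor C/EBPα. The deleted genotype, Cebpafl/fl;Mx1Cre, carries in addition a Cre recombinase under the Mx1 promoter, which the double-stranded RNA pIpC switches on through interferon. Mice of both genotypes received pIpC, and cells were sorted at day 18 and read on Affymetrix Mouse Gene 1.0 ST arrays, 3 samples per genotype, named a, b and c in the labels. Mx1Cre also acts in interferon-responsive cells outside the blood, and controls carry no Cre, so the presence of Cre and the loss of Cebpa cannot be told apart. The labels give no ages and do not say whether the 3 samples of a genotype were separate mice, so p-values measure the spread between these samples, which may be technical. The comparison asks how transcripts of these progenitors differ once Cebpa is deleted.

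Hexokinases trap glucose in the cell as glucose 6-phosphate. Phosphofructokinase-1 then commits fructose 6-phosphate to glycolysis, and its strongest activator, fructose 2,6-bisphosphate, is made and removed by the bifunctional phosphofructokinase-2 enzymes. Each step has isoenzymes that differ in tissue distribution and control. Blood stem and progenitor cells in the marrow are known to rely strongly on glycolysis, and Hk3 is the hexokinase most tied to granulocytes and monocytes.

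The deposited values are on a log2 scale. Array medians were 6.22 to 6.23 for controls and 6.16 to 6.2 for deleted samples. Cebpa itself was lower in deleted samples, with 7.84, 7.85 and 7.73 in controls and 6.37, 5.82 and 6.09 after deletion. The sources do not say whether its row lies within the floxed stretch. The labelled cell type was checked against those of its markers that were measured. Ly6a, the gene of Sca-1, was not among the measured genes. Kit, Cd34, Flt3 and Cd48 read between 8.96 and 11.62 on the arrays, and Slamf1, which encodes CD150, between 3.48 and 4.86, below the median of all values, 6.2. Kit, Flt3 and Cd48 differed between the genotypes, as given below. The labels call the mice female, while Kdm5d and Eif2s3y, both on the Y chromosome, had values of 8.04 to 8.49 throughout.

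Of the 9 isoenzymes, the 2 by which the set was chosen passed the threshold given below, and the 7 others did not. Hk3 was 2.83-fold lower in deleted cells (95% interval 2.34 to 3.42) and Pfkfb3 was 1.57-fold higher (1.33 to 1.85). The limma fit over all genes, at a Benjamini-Hochberg adjusted p under 0.05, called 286 genes, 1.43% of those tested, with 0.702% higher and 0.732% lower. Hk3 and Pfkfb3 were among them, and since this contrast chose the set, nothing is read from that count. The 7 other isoenzymes were not called, and none of them reached an unadjusted p under 0.05, as 15.9% of all genes did. The median log2 fold change, deleted minus control, was 0.02 over the 9 isoenzymes and 0.03 over all genes, and the median size of change was 0.11 against 0.12. Control and deleted values were fully separated for Hk3, Pfkfb3 and the row kept for Hk1, 2 lower and 1 higher, where 21.2% of all genes showed such a separation (8.68% lower and 12.5% higher).

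**Figure D1:**
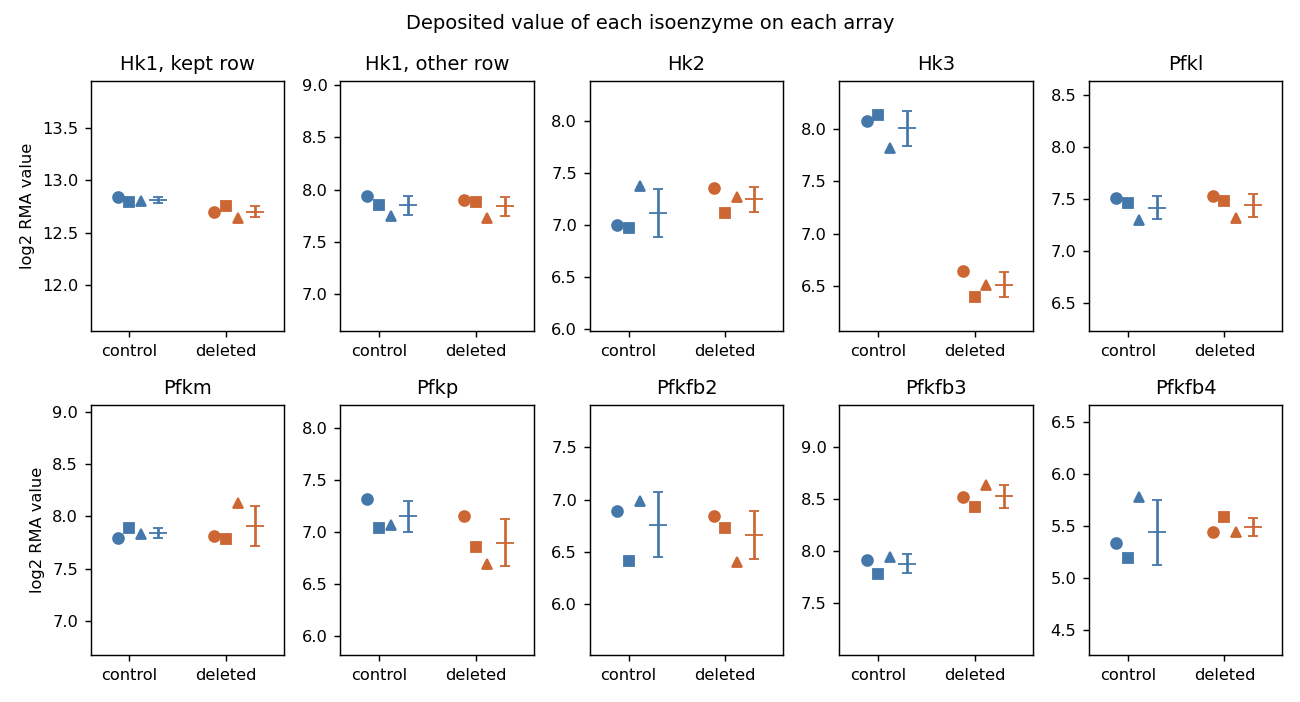
Deposited log2 value (y axis, every panel spanning the same range) of each isoenzyme in control (blue) and deleted (orange) samples, with circle, square and triangle for samples a, b and c and the mean ± SD (n = 3) beside them. Hk3 reads 7.82 to 8.14 in controls and 6.39 to 6.64 in deleted samples, and Pfkfb3 lies higher in the 3 deleted samples, while the other panels are nearly level.

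**Figure D2:**
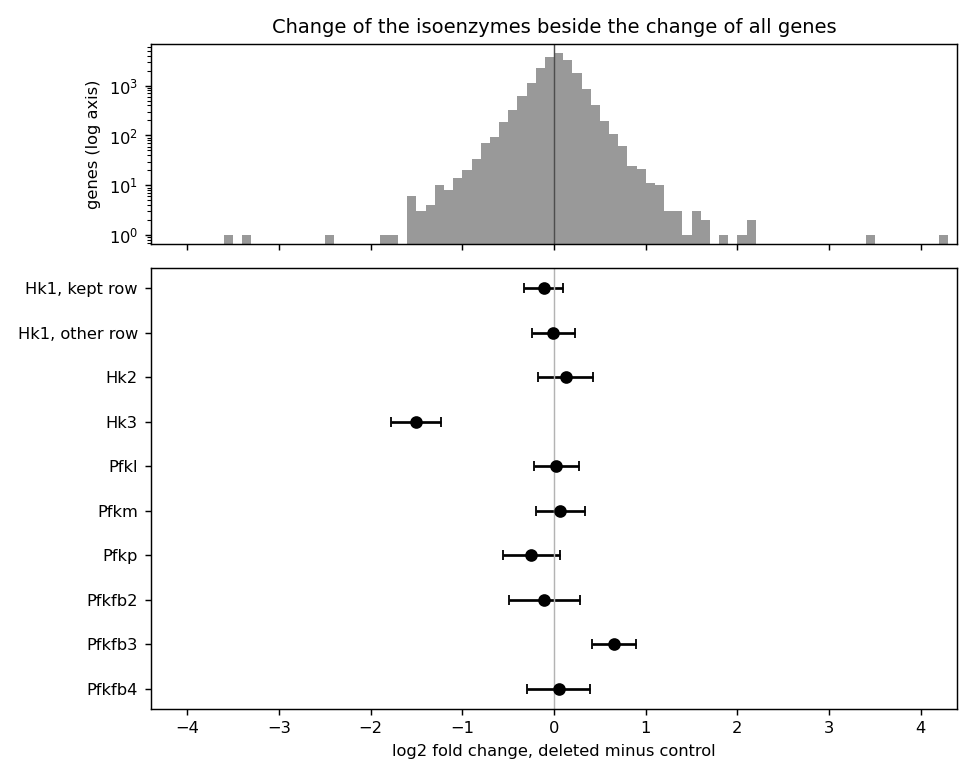
Log2 fold change, deleted minus control, of all 19938 genes as a histogram with a logarithmic count axis (top) and of each isoenzyme with its 95% interval (bottom). Hk3 at -1.50 and Pfkfb3 at 0.65 lie outside the bulk of genes, and the intervals of all other isoenzymes include 0.

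Hk3, hexokinase III, read 8.08, 8.14 and 7.82 in controls a, b and c and 6.64, 6.39 and 6.51 in deleted samples a, b and c. The lowest control lay 1.18 above the highest deleted sample, a gap wider than the range within either genotype (0.32 and 0.25). The means were 8.01 ± 0.17 and 6.51 ± 0.12 (SD, n = 3 each), a log2 fold change of -1.50 ± 0.12 (SE). Ordered from the most negative change, Hk3 stood at rank 11 of all genes. Its deleted samples read above 6.2, the median of all values, but close to it.

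Hk2, the hexokinase of muscle and fat that hypoxia and insulin induce, overlapped between the genotypes and varied more among controls (SD 0.23) than among deleted samples (SD 0.12). It read 7.0, 6.97 and 7.38 in controls and 7.36, 7.12 and 7.27 in deleted samples. All 3 deleted values lay within the control range, and the difference, deleted minus control, was 0.13 ± 0.13 (SE) in log2, with a 95% interval from -0.17 to 0.43.

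For Hk1, the most widely expressed hexokinase, the row kept by the rule is open to doubt. It read 12.84, 12.79 and 12.80 in controls and 12.70, 12.75 and 12.64 in deleted samples, higher than 99.2% of all deposited rows on average. Its annotation is 1 accession, which the other row naming Hk1 alone also carries. That accession also stands in all 16 rows that are annotated to both Hk1 and Rpl17, a gene of the cytosolic ribosome, and those rows averaged between 11.65 and 13.47. After each row was centred on its own mean, the kept row differed from those 16 by a median root mean square of 0.048, against 0.189 for all rows. The other row of Hk1 was also nearer to those 16 than to rows in general (0.0731 against 0.192), so this measure does little to tell the rows apart. The separation of the genotypes seen in this row was small, a log2 fold change of -0.11 ± 0.10 (SE), and the 16 rows ranged from -0.18 to -0.04.

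The other row naming Hk1 alone is annotated with 8 accessions, RefSeq transcripts of Hk1 among them. It read 7.94, 7.85 and 7.75 in controls and 7.90, 7.88 and 7.73 in deleted samples, so the genotypes overlapped, with deleted c just below every control. Its log2 fold change was -0.01 ± 0.11 (SE), with a 95% interval from -0.24 to 0.23. On this row Hk1 was level between the genotypes within the width of that interval, and the separation of 3 against 3 values in the kept row was not present.

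Promoter windows of the 9 genes were searched because C/EBPα, the deleted factor, binds DNA directly and because hypoxia-inducible factor (HIF) is a known regulator of Hk2 and Pfkfb3. The windows, 16 in all, run from 250 bases before to 50 bases after a RefSeq transcription start (build GRCm38.p6). Letters searched on both strands were TTNNGNAA for C/EBP, ACGTG for HIF, CACGTG for the E-box of Myc-type factors, which contains the HIF letters, and GAGGAA for PU.1, a myeloid Ets factor. Below are the stretches of Hk3 and Pfkfb3, the pair that differed, and of Hk2, an isoenzyme of level signal, each from 250 bases before the start, 5′ to 3′ on the gene's strand, with every match in capitals. The Hk3 stretch (chr13:55021476-55021635, minus strand) ends at the edge of the gene's annotated span, 91 bases before the start used. That of Hk2 is chr6:82774455-82774704, minus strand. That of Pfkfb3 (chr2:11502091-11502340, minus strand) belongs to a start inside the gene's span.
Hk3: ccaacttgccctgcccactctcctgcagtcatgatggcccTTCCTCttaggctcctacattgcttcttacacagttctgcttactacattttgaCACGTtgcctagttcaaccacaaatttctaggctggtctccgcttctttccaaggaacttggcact
Hk2: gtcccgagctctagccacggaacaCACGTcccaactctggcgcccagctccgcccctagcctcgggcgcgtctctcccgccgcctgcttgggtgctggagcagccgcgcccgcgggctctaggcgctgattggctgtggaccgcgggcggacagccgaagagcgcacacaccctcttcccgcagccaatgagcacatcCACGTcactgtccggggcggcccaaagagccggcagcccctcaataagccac
Pfkfb3: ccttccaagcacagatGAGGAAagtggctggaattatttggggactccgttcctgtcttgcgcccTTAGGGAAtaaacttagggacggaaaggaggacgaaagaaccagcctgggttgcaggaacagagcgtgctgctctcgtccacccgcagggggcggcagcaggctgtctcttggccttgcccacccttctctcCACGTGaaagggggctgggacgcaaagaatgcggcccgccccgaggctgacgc

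The Hk3 window held the PU.1 letters 210 bases and the HIF letters 156 bases before the start, both on the reverse strand, where they are written TTCCTC and CACGT. The C/EBP letters were not in this window, which says only that they are not within these 300 bases. The Pfkfb3 window held the C/EBP letters as TTAGGGAA at 185 bases, the PU.1 letters at 234 bases and an E-box at 53 bases before the start. A second Pfkfb3 start, at the 5′ end of the gene, had the HIF letters 60 bases before it. Hk2 held the HIF letters at 226 and at 52 bases before its start.

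Such letters are common. TTNNGNAA occurred in 40.7% of all 32851 promoter windows and in 7 of the 16 isoenzyme windows, from 5 of the 9 isoenzymes. ACGTG occurred in 19.6% of all windows and in 9 of the 16, from 6 isoenzymes. CACGTG occurred in 7.15% of all windows and in 3 of the 16, from 3 isoenzymes. GAGGAA occurred in 28.3% of all windows and in 7 of the 16, from 4 isoenzymes. Genes with several starts had several chances of a match, and some of their windows overlap. A match describes the sequence and shows no binding.

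The 3 subunits of phosphofructokinase-1 were level or nearly so. Pfkl, the liver-type subunit, read 7.51, 7.46 and 7.30 in controls and 7.53, 7.48 and 7.32 in deleted samples, the same spread in both. Its log2 fold change was 0.02 ± 0.11 (SE), with a 95% interval from -0.22 to 0.27. Pfkm, the muscle-type subunit, read 7.79, 7.89 and 7.83 in controls. In deleted samples it read 7.81 and 7.78 in a and b, within the control range or just below it, and 8.13 in c. Its log2 fold change was 0.07 ± 0.12 (SE), from -0.20 to 0.34.

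Pfkp, the platelet-type subunit, showed the largest difference among the 7 other isoenzymes, at -0.25 ± 0.14 (SE), with a 95% interval from -0.56 to 0.06. It read 7.32, 7.04 and 7.07 in controls and 7.15, 6.86 and 6.69 in deleted samples. Deleted b and c lay below all controls, and deleted a lay above controls b and c. Of all genes, 21.7% had a change at least as large in size.

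The phosphofructokinase-2 enzymes were split. Pfkfb3, the inducible isoenzyme, whose kinase activity far exceeds its phosphatase activity, read 7.92, 7.78 and 7.95 in controls and 8.52, 8.43 and 8.64 in deleted samples. Every deleted sample lay above every control, with a gap of 0.48 against ranges of 0.18 and 0.21 within the genotypes. The means were 7.88 ± 0.09 and 8.53 ± 0.11 (SD, n = 3 each), a log2 fold change of 0.65 ± 0.11 (SE). Of all genes, 2.0% differed at least as much in size, and ordered from the most positive change Pfkfb3 stood at rank 180. Pfkfb3 was no longer among the called genes without control a, control b or any deleted sample, with a log2 fold change between 0.59 and 0.70 over all 6 omissions of an array.

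Pfkfb2, the heart-type enzyme controlled by Akt phosphorylation, varied more within the genotypes than between them. It read 6.89, 6.41 and 6.99 in controls and 6.84, 6.73 and 6.40 in deleted samples, with a log2 fold change of -0.11 ± 0.17 (SE) and a 95% interval from -0.49 to 0.28. Pfkfb4, an enzyme found in testis and in hypoxic or tumour cells, read 5.34, 5.19 and 5.78 in controls and 5.44, 5.59 and 5.44 in deleted samples. Each of the 6 values was under 6.2, the all-value median, where a small difference is hard to read. Its log2 fold change was 0.05 ± 0.15 (SE), from -0.29 to 0.39.

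The array profiles nearest to Hk3 and Pfkfb3 were sought among 9968 genes from those not under the median of mean intensity. The measure was the root mean square difference of log2 values over the 6 arrays after centring each gene on its mean. Most of the spread of both profiles lies between the genotypes, so nearness here is mostly a like difference in the comparison that chose the set. For Hk3 the nearest named gene was Cebpa (0.149). Hlf, a transcription factor of stem cells (0.174), and Prkg1, a cGMP-dependent protein kinase (0.175), followed. The median of the compared genes was 0.775. Hlf read 9.65, 9.71 and 9.66 in controls and 8.06, 8.24 and 8.39 in deleted samples. Within the deleted samples Hk3 and Cebpa were both highest in a and lowest in b. Prkg1 was also lowest in b but highest in c, and Hlf was lowest in a. These orders rest on 3 values each and were not tested.

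For Pfkfb3 the nearest genes were Kif5b, a kinesin motor (0.0505), Prkrip1 (0.0624) and Fam133b (0.0635), where the median of the compared genes was 0.358. Kif5b read 8.76, 8.55 and 8.78 in controls and 9.37, 9.14 and 9.40 in deleted samples. Like Pfkfb3, it was lowest in control b among the controls and lowest in deleted b among the deleted samples.

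**Figure D3:**
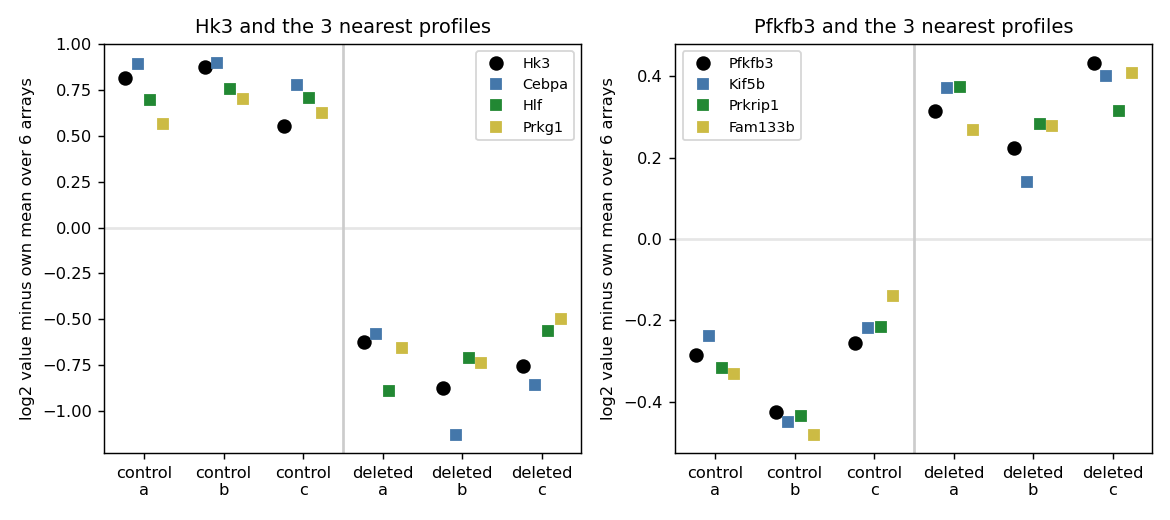
Log2 value minus the gene's own mean over the 6 arrays (y axis) for Hk3 (left) and Pfkfb3 (right), black circles, and for the 3 genes of nearest profile, coloured squares, on each array (x axis). Hk3 and Cebpa both read highest in a and lowest in b among the deleted samples, and Prkg1 also reads lowest in b. The genes beside Pfkfb3 differ from it by a root mean square of 0.0505 to 0.0635.

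Transcripts of other cell types moved with the genotype as well, and their part in the difference of Hk3 or Pfkfb3 was not tested. Of 15 neutrophil markers, 4 fell and 0 rose at the adjusted threshold, where 1.43% of all genes were called. At an unadjusted p under 0.05 (15.9% of all genes), 6 of these markers were lower and 2 higher. Their summed level on the log2 scale was 10.78 to 10.90 in controls and 9.55 to 9.79 in deleted samples. S100a8, a calcium-binding protein abundant in neutrophils, read 8.37, 8.22 and 8.58 in controls and 5.03, 4.74 and 4.86 after deletion. The defining markers Ltf, Lcn2, Retnlg, Mmp8, Mmp9, Ly6g and Chil3 read below the median of all values on every array. Of 11 monocyte and macrophage markers, Cd68 alone fell, with summed levels of 10.32 to 10.52 and 10.18 to 10.32, and Csf1r, Ly86, Ccr2, Adgre1, Clec7a and F13a1 read below the median throughout. Of 7 genes of granulocyte and monocyte precursors, none was called by limma and 4 had an unadjusted p under 0.05 (2 higher, 2 lower, beside 15.9% of all genes), and their summed level of 11.46 to 11.79 in controls overlapped that of 11.64 to 12.16 in deleted samples.

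Of 6 long-term stem cell markers, Procr, Mecom and Hlf fell and 0 rose, where 1.43% of all genes were called. Counted at an unadjusted p under 0.05, 4 were lower and 1 higher, beside 15.9% of all genes. Summed levels were 10.32 to 10.47 in controls and 9.07 to 9.38 in deleted samples. Hlf, whose mean was 9.67 in controls and 8.23 in deleted samples, made up much of these levels. Slamf1 read below the median of all values on every array. Of 8 mast cell and basophil markers, Cpa3 and Gzmb rose and 0 fell, while the list median was 0.03, with 4 markers above 0 and 4 below. At an unadjusted p under 0.05, 3 were higher and 1 lower. Gzmb read 5.74, 5.83 and 5.67 in controls, below the median of all values, and spread widely after deletion (9.24, 7.18 and 7.42, SD 1.13). The summed level, 9.25 to 9.34 in controls and 11.52 or more in deleted samples, was largely that of Cpa3, whose mean was 7.92 in controls and 11.38 in deleted samples, while Ms4a2, Fcer1a, Hdc and Cma1 read below the median on every array. Of 6 stroma and endothelium markers Pdgfrb rose and 0 fell, and of 4 LSK markers Cd48 rose while Kit and Flt3 fell. None of 5 erythroid, 4 megakaryocyte, 5 B cell, 9 T and NK cell or 6 dendritic cell markers was called by limma, and 1, 2, 0, 2 and 1 of them had an unadjusted p under 0.05. In sorted cells read in bulk, fewer cells of a type and less RNA per cell cannot be told apart.

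Outside the 9 isoenzymes, 110 of 123 genes from 8 lists of glucose metabolism and its control were measured. Of these, 3 were called in the limma fit over all genes, 1 higher and 2 lower (1.43% of all genes were called), and the median log2 fold change was 0.03 in both. The genes were Pgam2, Ldhb and Txnip.

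Of 16 measured genes of later glycolysis and lactate formation, 1 rose and 1 fell (1.43% of all genes were called), with a list median of 0.04. Ldhb, the lactate dehydrogenase subunit that favours the use of lactate, read 8.06, 8.36 and 8.16 in controls and 6.62, 7.33 and 6.86 in deleted samples. Every deleted value was below every control, and it fell by 1.26 ± 0.17 on the log2 scale (SE, limma adjusted p = 0.0119). Without control b it did not pass (limma adjusted p = 0.0553). Ldha, the subunit of lactate production, overlapped between the genotypes, with a log2 fold change of 0.17 ± 0.11 (SE). Pgam2, the muscle form of phosphoglycerate mutase, read 6.30, 6.31 and 6.38 in controls and 6.85, 7.15 and 6.87 in deleted samples. Its controls read above 6.2, the median of all values, but close to it. Pgam2 rose by 0.63 ± 0.11 (SE, limma adjusted p = 0.0337), and lost its call without any single array (limma adjusted p up to 0.118). It also did not pass with the sample letters as a replicate block (limma adjusted p = 0.0537).

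Of 23 regulators of glycolytic genes and enzymes, Txnip fell and 0 rose (1.43% of all genes were called), with a list median of 0.01. Txnip, which restrains glucose uptake and is itself induced by glucose, read 10.14, 10.05 and 10.01 in controls and 9.31, 9.15 and 9.15 in deleted samples. The genotypes did not overlap, and it fell by 0.86 ± 0.10 on the log2 scale (SE, limma adjusted p = 0.00671).

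Entry of glucose showed no called gene. Of 8 glucose and lactate transporters, with a list median of -0.03, none passed, where 1.43% of all genes did. An unadjusted p under 0.05 was found for 1 of them, beside 15.9% of all genes. That gene, Slc2a3, a high-affinity glucose transporter, read 7.14, 6.94 and 6.80 in controls and 6.53, 6.46 and 6.45 in deleted samples, a log2 fold change of -0.48 ± 0.11 (SE, limma adjusted p = 0.0770). It passed when the dimmer genes, those under the median intensity, were left out (limma adjusted p = 0.0496). Beside the same shares, none of 9 other kinases and phosphatases of the entry steps passed in limma, with a list median of -0.04. Of these 9, 1 had an unadjusted p under 0.05. It was G6pc3, the broadly expressed glucose-6-phosphatase, which undoes the hexokinase reaction, with a log2 fold change of -0.53 ± 0.16 (SE, limma adjusted p = 0.151, or 0.0411 without control c).

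The branches from glycolysis had no called gene in the limma fit either. Of 13 genes of pyruvate entry to mitochondria, 1 had an unadjusted p under 0.05, the pyruvate dehydrogenase subunit Pdha1 (0.41 ± 0.13 SE, limma adjusted p = 0.152), and the list median was 0.08. Of 10 genes of the pentose phosphate pathway, 1 had such a p, the lactonase Pgls (0.30 ± 0.12 SE, limma adjusted p = 0.267), with a list median of 0.10. Of 16 genes of the glycogen, hexosamine and polyol branches, 5 had such a p (3 higher, 2 lower, beside 15.9% of all genes), and the smallest was that of the glucosamine-6-phosphate deaminase Gnpda2 (0.61 ± 0.14 SE, limma adjusted p = 0.0647), with a list median of 0.08. Gnpda2 passed under quantile normalization, with arrays centred on their medians and with genes under the median intensity left out (lowest limma adjusted p = 0.0420).

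Targets of hypoxia outside glycolysis, read because Pfkfb3, Pfkfb4 and Hk2 belong to the same known response, had 0 of 15 genes called by limma and 5 with an unadjusted p under 0.05 (4 higher, 1 lower), beside 15.9% of all genes. Ddit4, an inhibitor of mTOR signalling, had the smallest p, with a log2 fold change of 0.34 ± 0.11 (SE, limma adjusted p = 0.161). The list median was 0.11 beside 0.03 for all genes.

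**Figure D4:**
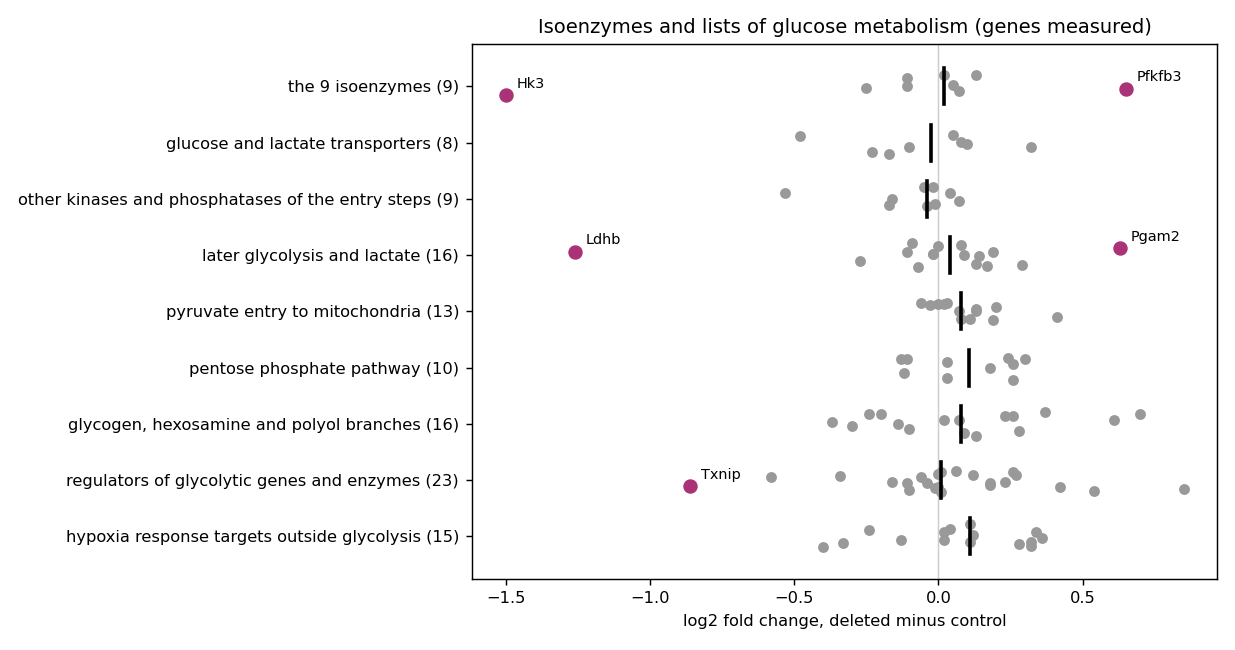
Log2 fold change, deleted minus control (x axis), of the 9 isoenzymes and of the measured genes of 8 lists of glucose metabolism and its control (rows, genes measured in parentheses), with black bars for list medians. Purple points passed the adjusted p threshold of 0.05 and are Hk3, Pfkfb3, Ldhb, Pgam2 and Txnip, and grey points did not. Hk3 and Pfkfb3 were chosen by this difference.

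**Figure D5:**
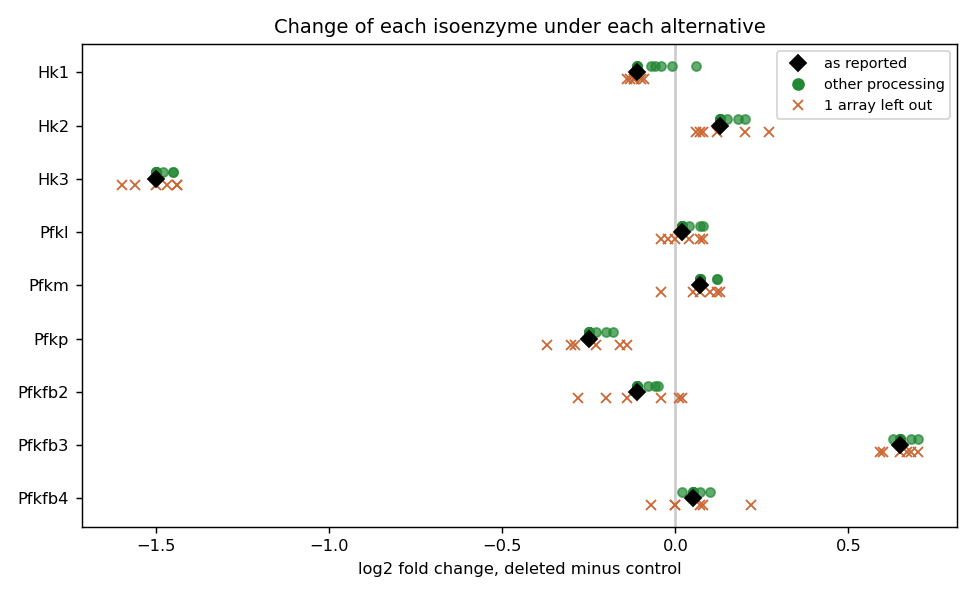
Log2 fold change, deleted minus control (x axis), of each isoenzyme as reported (diamonds), under other processing (circles) and with 1 array left out (crosses). Hk3 stays between -1.60 and -1.44 and Pfkfb3 between 0.59 and 0.70, whereas Hk1, Pfkl, Pfkm, Pfkfb2 and Pfkfb4 cross 0.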

How the data were processed

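Log2 values per probe set were deposited by the authors. The submitters' processing notes list Affymetrix Expression Console 1.1.2 and RMA, a method of background correction, between-array normalization and probe summary, without settings or annotation build. Total RNA of 20 ng per sample was amplified, per the labels' protocols. Precision is limited by there being 3 arrays per genotype.

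Of 35556 rows, 21789 name 1 gene in the platform annotation, giving 19938 genes, 1 row each. All were tested. The fit used R 4.3.3 with limma 3.58.1 (lmFit, eBayes, no block, two-sided, Benjamini-Hochberg over all genes). Intervals come from that fit. The same steps were also run on simulated independent normal values with variances drawn from the fitted prior. That run checks the code and cannot check the assumptions of the fit. Promoters came from RefSeq (GRCm38.p6), where all 9 symbols matched. Tables and figures used Python 3.11.15, pandas 2.3.3 and matplotlib 3.10.9.

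The isoenzymes and lists were chosen with earlier results of these data known. Named beside the isoenzymes were Cebpa, list genes that passed or had the smallest p, marker genes and the 3 nearest profiles. Clone names and short RNAs were left out of the profiles. Alternatives were an intensity trend, 2 filters on dim genes, 3 normalizations, the mean of a gene's rows, the sample letters as a block, leaving out each array and, chosen after seeing the data, the other row of Hk1.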

Additional observations from a re-analysis of the deposited data

How the results depend on the processing

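Hk3 and Pfkfb3 were chosen by the difference between genotypes, so their calls here describe the processing and add no support. Hk3 kept its direction and its place among the called genes under all 15 alternatives, with a log2 fold change between -1.60 and -1.44. Of these alternatives, only the 3 normalizations and the omissions of an array could change the fold of Hk3 or Pfkfb3. The trend, filters and block leave a fold as it is, both genes have 1 row, and the other Hk1 row concerns Hk1 alone. Pfkfb3 stayed between 0.59 and 0.70 and was called in 10 of 15, and the number of isoenzymes called was 1 to 2 when single arrays were left out. The 286 called genes became 438 with genes under the median intensity left out and 53 to 250 when single arrays were left out (control a left out gave 126, control b 53, deleted a 145, deleted b 84 and deleted c 143). The share of called genes that were higher was 49.0% as deposited, 61.6% after quantile normalization and 65.8% with arrays centred on their medians. Called pathway genes numbered 3, and 7 with that filter, 5 with arrays centred on their medians and 1 to 4 with single arrays left out, with 1 without control b. The cause of these shifts was not tested, except that the filters test fewer genes and omissions leave fewer samples. Same-letter samples of the genotypes did not deviate together (correlations of -0.01, -0.04 and 0.06 over genes), so the letters are not taken as pairs. With the letters as a replicate block, 274 genes, 2 isoenzymes and 2 pathway genes were called. The Hk1 row kept by the rule read 0.06 after quantile normalization, against -0.11 as deposited. Pfkfb4 lies below the median of all values, where small changes cannot be read.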

Other observations

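A few further genes were picked after their values were seen, and none passed the limma fit over all genes. Hif1a, the oxygen-regulated subunit of HIF, read 7.28, 7.36 and 7.60 in controls and 7.95, 7.74 and 7.81 in deleted samples, a log2 fold change of 0.42 ± 0.12 (SE, limma adjusted p = 0.126). Of the prolyl hydroxylases that mark it for degradation, Egln3 had a log2 fold change of 0.85 ± 0.19 (SE, limma adjusted p = 0.0683) and Egln1 of 0.54 ± 0.16 (SE, limma adjusted p = 0.141). For Hif1a, Egln3 and Egln1 the genotypes did not overlap, as for 21.2% of all genes. Egln2, Hif1an, Epas1 and Arnt, also of oxygen sensing, overlapped between the genotypes, with log2 fold changes of 0.01 ± 0.10 (SE) for the prolyl hydroxylase Egln2, of -0.04 ± 0.14 for Hif1an, of 0.00 ± 0.11 for Epas1 and of 0.00 ± 0.10 for Arnt. In the hexosamine branch, Gnpnat1, an acetyltransferase, read 9.26, 8.71 and 8.69 in controls and 9.48, 9.64 and 9.65 in deleted samples, with a log2 fold change of 0.70 ± 0.16 (SE, limma adjusted p = 0.0663).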
